A study of Mus musculus with 9 samples.

Results

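The interferon regulatory factor (IRF) family was followed by RNA sequencing in mouse plasmacytoid dendritic cells (pDCs), a dendritic cell type known for very high type I interferon output. The members are Irf1, Irf2, Irf3, Irf4, Irf5, Irf7, Irf8 and Irf9, found in the counts by gene symbol. All 8 symbols were matched to a gene among the 57126 genes counted, and all 8 were among the 17555 genes that passed the filter on low counts. The sorted cells had been treated with phosphate-buffered saline (PBS, the vehicle), with mitochondrial DNA (mtDNA) or with oxidized mitochondrial DNA (Ox-mtDNA). Each of the 3 groups had 3 libraries, numbered 1 to 3, for 9 libraries in all. Strain, genotype, age, dose and time of treatment are not given in the sources used here, and neither is whether replicates were separate animals or cultures, so p-values measure only the spread between these samples.

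IRF proteins share an amino-terminal DNA-binding domain that recognises GAAA repeats, the core of the interferon-stimulated response element (ISRE). IRF3, IRF5 and IRF7 sit downstream of nucleic acid sensors and, once phosphorylated, drive interferon genes, with IRF7 being the member most closely tied to interferon-alpha production in pDCs. IRF9 is the DNA-binding subunit of the complex with STAT proteins that carries the type I interferon signal to ISREs, IRF1 is an interferon-inducible activator with IRF2 as its classical antagonist, and IRF8 and IRF4 are lineage factors of dendritic and B cells that bind with partner proteins. Phosphorylation and protein level were not measured, and all values here are of RNA.

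Total counts ranged from 16029951 to 25378884 per library, and each member had at least 357 counts in every library, the lowest being Irf3. Of 12 pDC marker genes, 11 reached 1 CPM (the count as a rate over its TMM-scaled library total) in every library, and Siglech, which encodes the pDC surface lectin Siglec-H, lay between 1194 and 2440 CPM. The pDC list summed to 7088 to 9438 CPM in PBS, 6053 to 7798 in mtDNA and 3889 to 7022 in Ox-mtDNA. Erythroid genes were under 1 CPM throughout, while all 8 B cell markers reached 1 CPM in every library and summed to 267 to 402 CPM in PBS, 175 to 224 in mtDNA and 126 to 649 in Ox-mtDNA. The replicate 3 libraries of all 3 groups stood apart. A first principal component of log2 CPM with 70.7% of the variance carried this split, Xist was at 818, 1928 and 2087 CPM there against at most 0.846 in the other 6 libraries, and genes of high GC content had low values there. Results below are therefore also given for replicates 1 and 2 alone where that matters.

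No gene of the 17555 tested passed an adjusted p of 0.05 in any of the 3 comparisons with the quasi-likelihood F-test of edgeR, a background of 0% in each, and no member passed it. Differences described below as higher or lower are measured values that did not pass that threshold. The smallest adjusted p over all genes with edgeR was 0.472 for Ox-mtDNA against PBS, 0.99997 for mtDNA against PBS and 0.99995 for Ox-mtDNA against mtDNA. At an unadjusted p under 0.05 the counts were 1722 genes (9.81%), 460 genes (2.62%) and 422 genes (2.4%), and the members among them were 1 of 8 (Irf1), 0 of 8 and 1 of 8 (Irf1). With DESeq2, 370, 14 and 1 genes passed an adjusted p of 0.05, with no member among them.

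Promoter windows show the DNA that precedes the members on which the values below turn most, Irf1 and Irf7, and those members whose window held a searched interferon motif. Each is 250 bases that end at the base before the RefSeq transcription start, 5′ to 3′ on the gene's strand, in the GRCm38.p6 build of RefSeq, which is not the build of the counts. Capitals mark matches to an ISRE (GAAA, then any 2 bases, then GAAA) or to a gamma-activated site of STAT dimers (GAS, TTCNNNGAA), each searched on both strands.
Irf1, chr11:53769764-53770013, plus strand: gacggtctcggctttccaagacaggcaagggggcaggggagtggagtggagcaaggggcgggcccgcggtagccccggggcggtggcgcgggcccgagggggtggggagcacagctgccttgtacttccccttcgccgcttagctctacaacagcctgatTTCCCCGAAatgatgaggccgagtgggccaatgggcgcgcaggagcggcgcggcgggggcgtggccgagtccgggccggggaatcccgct
Irf2, chr8:46739495-46739744, plus strand: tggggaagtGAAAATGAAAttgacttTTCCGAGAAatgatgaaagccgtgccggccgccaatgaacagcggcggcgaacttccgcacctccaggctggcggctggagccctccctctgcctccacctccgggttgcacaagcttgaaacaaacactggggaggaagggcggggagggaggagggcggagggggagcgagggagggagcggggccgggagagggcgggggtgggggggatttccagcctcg
Irf8, chr8:120736108-120736357, plus strand: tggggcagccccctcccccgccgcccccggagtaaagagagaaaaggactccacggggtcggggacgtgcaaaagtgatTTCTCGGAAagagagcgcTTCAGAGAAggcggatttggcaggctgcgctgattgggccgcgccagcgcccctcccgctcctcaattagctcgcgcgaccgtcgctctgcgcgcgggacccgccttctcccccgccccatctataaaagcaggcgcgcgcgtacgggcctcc
Irf7, chr7:141266425-141266674, minus strand: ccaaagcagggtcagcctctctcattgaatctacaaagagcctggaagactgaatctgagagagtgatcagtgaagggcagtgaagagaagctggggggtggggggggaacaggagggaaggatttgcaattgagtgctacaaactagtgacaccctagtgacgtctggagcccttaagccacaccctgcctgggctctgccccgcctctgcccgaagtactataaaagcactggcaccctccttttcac
The Irf1 window held the GAS match TTCCCCGAA, 90 to 82 bases before the start. The Irf2 window held the ISRE match GAAAATGAAA, 241 to 232 bases before the start, and the GAS match TTCCGAGAA at 224 to 216. The Irf8 window held 2 GAS matches, TTCTCGGAA at 171 to 163 and TTCAGAGAA at 153 to 145 bases before the start. No match overlapped another. Of all 32851 RefSeq promoter windows of this length, 978 (2.98%) held the ISRE letters and 2306 (7.02%) the GAS letters. All 8 members had an entry, 11 in all, and no other entry of a member held either motif, which says only that those letters are not in those windows.

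Levels of different members can be compared only per length, so CPM was divided by the kilobases of exon. In PBS, Irf8 stood at 583 ± 409 CPM per kb (SD, n = 3), ahead of Irf1 at 95.1 ± 20.9 and Irf7 at 76.1 ± 48.9 CPM per kb. Irf9 followed with 52.2 ± 2.11 CPM per kb and Irf5 with 46.0 ± 24.0. The lowest levels were those of Irf3 at 26.5 ± 11.9, Irf2 at 26.0 ± 8.63 and Irf4 at 17.3 ± 2.72 CPM per kb. Neighbours in this order differed by more than the larger of their SDs only at Irf8 over Irf1 and at Irf2 over Irf4, and the ranges of every neighbouring pair overlapped. With PBS replicates 1 and 2 alone, the order was Irf8, Irf7, Irf1, Irf5, Irf9, Irf3, Irf2 and Irf4. The Irf1 level includes any fragments shared with antisense Gm17334, described below, so it may be too high and its place ahead of Irf7 is not secure.

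Irf8 was the most abundant member per kb in 8 of the 9 libraries. Its share of the summed family level was 70.4%, 67.3% and 29.3% in PBS replicates 1, 2 and 3, 60.7%, 61.2% and 50.3% in mtDNA, and 82.4%, 42.9% and 67.8% in Ox-mtDNA. The exception was PBS replicate 3, where Irf1 stood at 117 and Irf8 at 113 CPM per kb. That exception rests on Irf1 counts that may be shared with antisense Gm17334, as described below. Before length scaling, both genes were at 389 CPM in that library, with 3336 and 3435 exon bases. With all Gm17334 counts subtracted, Irf1 was at 289 CPM there, below Irf8. Other members took an unusual share in single libraries, with Irf4 at 16.8% in mtDNA replicate 3 and Irf5 at 16.9% in Ox-mtDNA replicate 2.

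**Figure D1:**
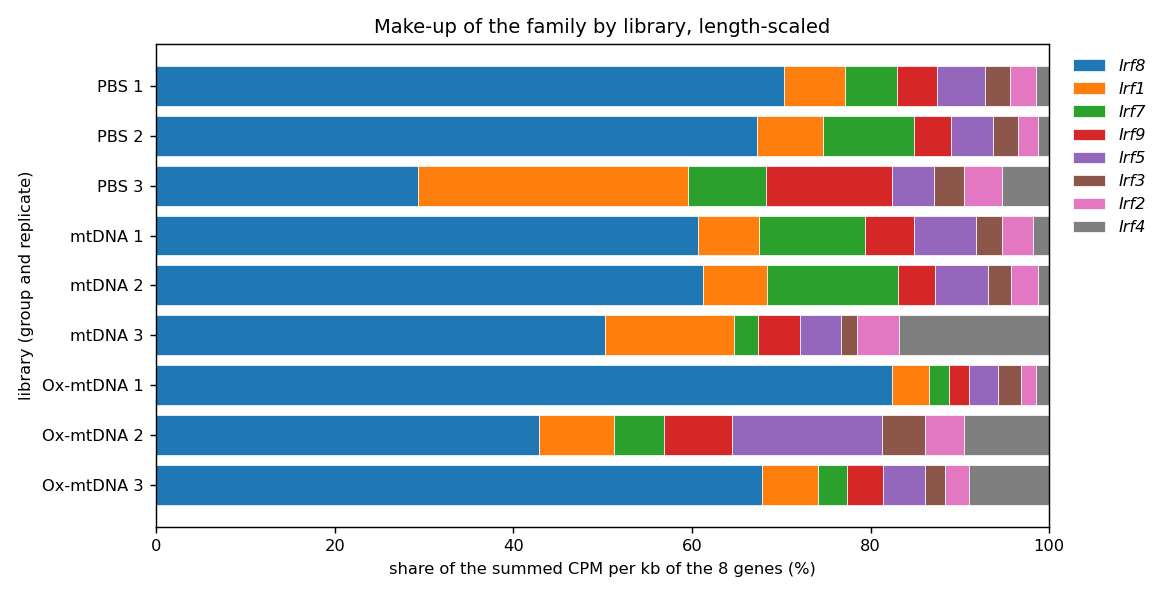
Share of the summed per-kb level of the 8 family genes (percent, horizontal axis) in each of the 9 libraries, 1 stacked horizontal bar per library and 1 colour per gene. Irf8 fills most of the bar in most libraries, from 29.3% in PBS replicate 3 to 82.4% in Ox-mtDNA replicate 1.

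Irf8 encodes the lineage factor that pDCs and type 1 conventional dendritic cells carry at high level, and it lies on chromosome 8 at 121463097 to 121483433 (GRCm39, plus strand). Its level was 2680, 2944 and 389 CPM in PBS replicates 1 to 3, 2219, 2630 and 872 CPM in mtDNA, and 4077, 808 and 1327 CPM in Ox-mtDNA. The spread within each group exceeded any difference between groups, and all 3 groups overlapped. Group means were 2004 ± 1405, 1907 ± 919 and 2071 ± 1757 CPM (SD, n = 3 each). The log2 fold change of Ox-mtDNA against PBS was 0.05 (SE 0.848, 95% interval -1.91 to 2.0, edgeR), an interval wide enough to hold a large difference in either direction. Between libraries of the same number the Ox-mtDNA minus PBS difference was 0.61, -1.86 and 1.77 on the log2 scale, so the direction differed between replicates. The Irf8 low of Ox-mtDNA, in replicate 2, came in the library with the lowest pDC marker sum of all 9 (3889 CPM) and the highest B cell marker sum (649 CPM). The lowest Irf8 of all 9 libraries, in PBS replicate 3, came with sums of 8161 CPM (pDC) and 267 CPM (B cell). In mtDNA replicate 3, also low in Irf8, they were 6147 and 175 CPM. The part of either cell type in the Irf8 values was not tested, and in bulk RNA fewer cells of a type and less RNA per cell cannot be told apart.

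Irf4, the close relative of Irf8 that B cells, plasma cells and activated dendritic cells use, lies on chromosome 13 at 30933209 to 30950959 (plus strand). It was the lowest member per kb in PBS and was higher in all 3 Ox-mtDNA libraries than in any PBS library. PBS replicates 1 to 3 had 74.9, 74.8 and 97.3 CPM, mtDNA had 91.4, 77.1 and 405 CPM, and Ox-mtDNA had 102, 248 and 243 CPM. PBS and Ox-mtDNA did not overlap, although Ox-mtDNA replicate 1 was close to the highest PBS library, and mtDNA reached its mean through a single library. The log2 fold change of Ox-mtDNA against PBS was 1.26 (SE 0.662, edgeR adjusted p = 0.606, 95% interval -0.26 to 2.78). For mtDNA against PBS it was 1.22 (SE 0.661, 95% interval -0.30 to 2.73), and without mtDNA replicate 3 it was -0.03. Plasma cell markers, of which 5 of 6 reached 1 CPM in every library, summed to 1095 to 1238 CPM in PBS, 933 to 1505 in mtDNA and 965 to 1709 in Ox-mtDNA. The mtDNA library with 405 CPM of Irf4 had the 1505 CPM sum, of which 1286 CPM were Xbp1, a secretory-pathway factor that is not limited to plasma cells. Sdc1, the CD138 gene, was at 5.27 CPM there against 24.4 and 18.7 in mtDNA replicates 1 and 2. Replicate 3 had the lowest Sdc1 of every group, with 2.81 CPM in PBS and 5.57 in Ox-mtDNA. The immunoglobulin joining chain gene Jchain was at 148 CPM in mtDNA replicate 3 against 274 and 138 in replicates 1 and 2. Prdm1, of the same list, was higher there, at 44.6 CPM against 13.1 and 11.7. Mzb1 was at 20.0 against 20.1 and 14.4, and Tnfrsf17 at 0.707 against 0.694 and 0.331. The 1709 CPM sum belonged to the Ox-mtDNA library with the lowest Irf4. The part of plasma cells in the Irf4 values was not tested.

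**Figure D2:**
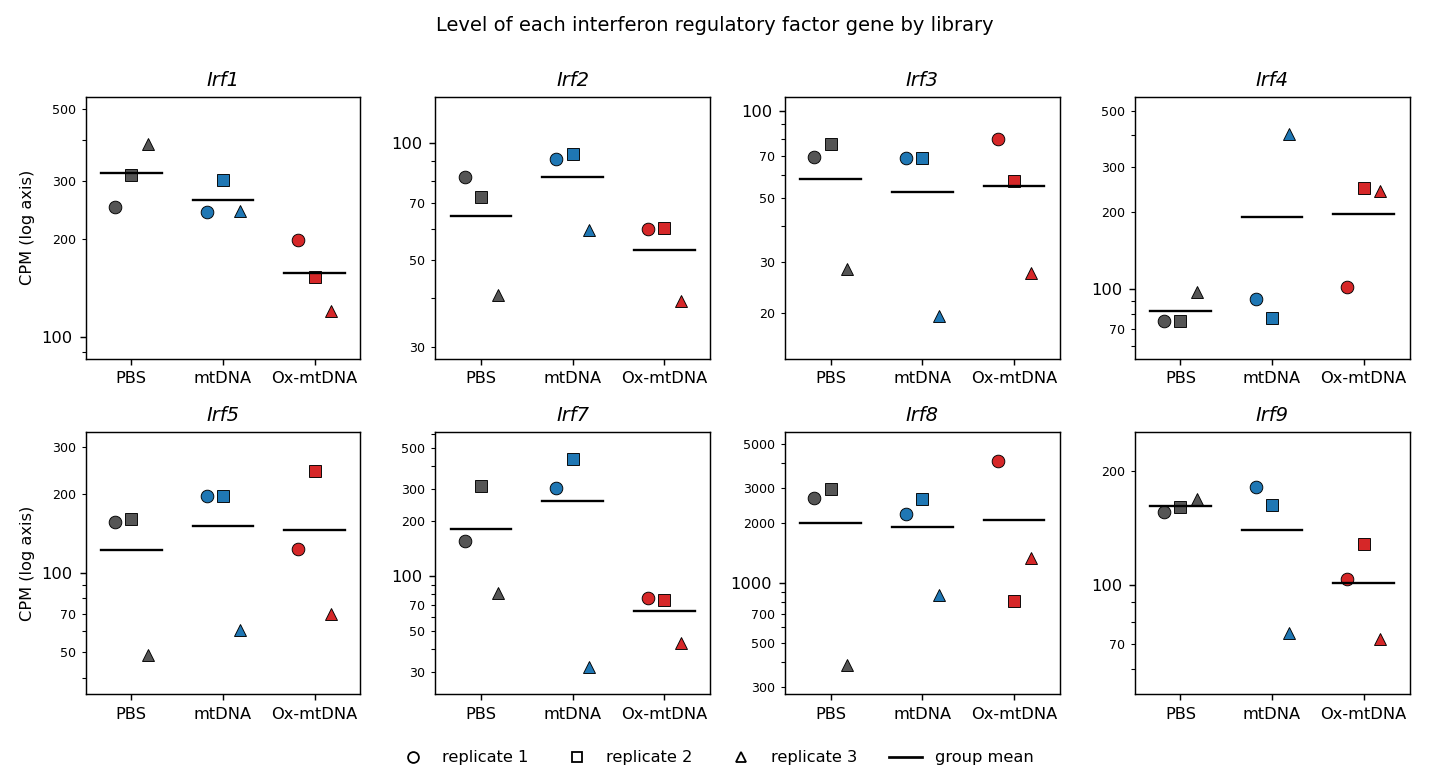
Level of each of the 8 genes in every library (CPM, log scale on the vertical axis) by treatment, 1 panel per gene, with 1 point per library marked by replicate number and a bar at the group mean. Irf1, Irf7 and Irf9 sit lower in all 3 Ox-mtDNA libraries than in any PBS library, Irf4 sits higher, and replicate 3 is the lowest PBS point for Irf2, Irf3, Irf5, Irf7 and Irf8.

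Irf7, the interferon-inducible factor that amplifies interferon-alpha production, lies on chromosome 7 at 140842619 to 140846394 (minus strand). It was lower in each Ox-mtDNA library than in every PBS library, narrowly so against PBS replicate 3. The values were 155, 310 and 80.8 CPM in PBS replicates 1 to 3, 303, 437 and 31.9 CPM in mtDNA, and 76.2, 73.7 and 43.5 CPM in Ox-mtDNA. The Ox-mtDNA libraries were close to each other, PBS varied about its mean of 182 ± 117 CPM, and mtDNA held both the highest and the lowest value of the 9 libraries. Ox-mtDNA against PBS gave a log2 fold change of -1.5 (SE 0.854, edgeR adjusted p = 0.648, 95% interval -3.47 to 0.47), and -0.89 without PBS replicate 2.

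Against mtDNA the Irf7 difference of Ox-mtDNA was the largest of any member, with a log2 fold change of -2.0 (SE 0.867, edgeR adjusted p = 0.99995). Replicates 1 and 2 carried it, with Ox-mtDNA minus mtDNA differences of -1.99 and -2.57 on the log2 scale, while replicate 3 gave 0.45. In replicates 1 and 2 alone the fold change was -2.30 with an edgeR adjusted p of 0.126, and over all alternatives its adjusted p ranged from 0.126 to 1. For mtDNA against PBS the log2 fold change was 0.50 (SE 0.838, 95% interval -1.43 to 2.43), with same-number differences of 0.96, 0.50 and -1.34, and it was -0.12 without mtDNA replicate 2. Irf7 in mtDNA therefore lay above PBS in replicates 1 and 2 and below it in replicate 3.

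Irf3, the constitutively present factor that cGAS-STING and RIG-I-like receptor signals activate, lies on chromosome 7 at 44647072 to 44652272 (plus strand). It showed no difference beyond the spread, with 69.1, 76.7 and 28.3 CPM in PBS, 68.9, 68.8 and 19.4 CPM in mtDNA and 80.1, 57.1 and 27.5 CPM in Ox-mtDNA. Replicate 3 was the lowest library of every group, and the 3 groups overlapped. Ox-mtDNA against PBS gave -0.08 on the log2 scale (SE 0.607, 95% interval -1.47 to 1.31, edgeR).

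Irf5, which acts with MyD88 below Toll-like receptors, lies on chromosome 6 at 29526624 to 29541870 (plus strand). Its values were 156, 161 and 48.7 CPM in PBS, 195, 196 and 60.6 CPM in mtDNA and 123, 245 and 70.0 CPM in Ox-mtDNA. The mtDNA libraries exceeded the PBS library of the same number by 0.32, 0.29 and 0.32 on the log2 scale, nearly the same in each pair. The groups overlapped all the same, and mtDNA against PBS gave a log2 fold change of 0.31 (SE 0.658, 95% interval -1.20 to 1.82, edgeR). Of all tested genes, 20.8% were higher in mtDNA than in PBS in all 3 such pairs.

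Irf9, the DNA-binding partner of STAT2 in type I interferon signalling, lies on chromosome 14 at 55841028 to 55847487 (plus strand). It was steady in PBS at 156, 161 and 169 CPM, was 181, 163 and 74.7 CPM in mtDNA, and was 103, 128 and 72.2 CPM in Ox-mtDNA. No Ox-mtDNA library reached the lowest PBS library, while the mtDNA group spanned both. Ox-mtDNA against PBS gave a log2 fold change of -0.67 (SE 0.369, edgeR adjusted p = 0.627, 95% interval -1.52 to 0.17), and with replicates 1 and 2 only it was -0.44. Its partner gene Stat2 had the same order of groups as Irf9 in replicate 1, mtDNA highest and Ox-mtDNA lowest, and in replicate 3, PBS highest, mtDNA next and Ox-mtDNA lowest, while in replicate 2 Stat2 was highest in PBS and Irf9 in mtDNA. Stat2 was at 305, 449 and 239 CPM in PBS, 395, 391 and 183 in mtDNA and 203, 117 and 160 in Ox-mtDNA.

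Irf1, an activator induced by interferon, lies on chromosome 11 at 53660841 to 53669200 (plus strand). It was the only member whose Ox-mtDNA libraries lay below all libraries of both other groups. Of all tested genes, 8.08% had every Ox-mtDNA library below PBS and 2.79% below mtDNA. The share below both was not counted. For Irf1, PBS replicates 1 to 3 had 249, 314 and 389 CPM, mtDNA had 241, 302 and 243 CPM, and Ox-mtDNA had 198, 153 and 120 CPM. The highest Ox-mtDNA value was below the lowest of the other 6 libraries, and group means were 317 ± 69.9, 262 ± 34.3 and 157 ± 39.3 CPM (SD, n = 3 each). The log2 fold change was -1.01 against PBS (SE 0.284, edgeR adjusted p = 0.472, 95% interval -1.66 to -0.36), and -0.68 with replicates 1 and 2 only. Against mtDNA it was -0.74 (SE 0.282, edgeR adjusted p = 0.99995, 95% interval -1.38 to -0.09), and for mtDNA against PBS it was -0.28 (SE 0.281). The adjusted p of Ox-mtDNA against PBS ranged from 0.0504 with DESeq2 to 0.801 without PBS replicate 2 (edgeR).

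Part of the Irf1 count may be shared with another gene, since counting used no strand and counted a fragment for every gene it overlapped. The antisense gene Gm17334 covers 616 of the 3336 exon bases of Irf1 (18.5%), and its counts were 24.3% to 31.7% of those of Irf1. With all counts of Gm17334 subtracted, Irf1 had a log2 fold change of -1.04 for Ox-mtDNA against PBS (edgeR adjusted p = 0.473). Irf5 shares 251 of 2647 exon bases with antisense Tnpo3 (9.48%), and Irf9 shares 123 of 3102 with Rnf31 on the same strand (3.97%).

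Irf2, which binds the same elements as IRF1 and was first described as its repressor, lies on chromosome 8 at 47192767 to 47300493 (plus strand). It had 81.7, 72.4 and 40.6 CPM in PBS, 91.0, 93.7 and 59.6 CPM in mtDNA and 59.95, 60.5 and 39.2 CPM in Ox-mtDNA. Every Ox-mtDNA library was below the mtDNA library of the same number, by nearly the same amount, with differences of -0.60, -0.63 and -0.60 on the log2 scale. Of all tested genes, 12.7% were lower in Ox-mtDNA than in mtDNA in all 3 such pairs. The groups overlapped when the numbers were ignored, and the log2 fold change of Ox-mtDNA against mtDNA was -0.61 (SE 0.349, 95% interval -1.41 to 0.19). With the replicate number as a block it was also -0.61, with an edgeR adjusted p of 0.729, and over all alternatives the adjusted p ranged from 0.223 to 1.

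Counted over the family, the Ox-mtDNA and PBS libraries did not overlap for 4 of 8 members (50%). Irf4 had all Ox-mtDNA libraries above PBS, against 7.41% of all tested genes, and Irf1, Irf7 and Irf9 had all below, against 8.08%. For mtDNA and PBS no member was free of overlap, where 5.58% of genes were above and 4.96% below. For Ox-mtDNA and mtDNA only Irf1 was, lying below, with 2.04% of genes above and 2.79% below. The median log2 fold change of the 8 members was -0.18, 0.12 and -0.25 in the 3 comparisons, beside 0.06, 0.02 and 0.04 over all tested genes. Some marker sums, though not all, also did not overlap between Ox-mtDNA and PBS. The Ox-mtDNA libraries lay below every PBS library in the summed pDC markers, but only narrowly (3889 to 7022 against 7088 to 9438 CPM). They also lay below in the sums of type 1 conventional dendritic cells (73.3 to 102 against 174 to 266 CPM), of type 2 conventional dendritic cells (95.6 to 195 against 223 to 228 CPM) and of monocytes and macrophages (676 to 1142 against 1210 to 2258 CPM). In mtDNA these 3 sums were 77.2 to 219, 155 to 223 and 950 to 1118 CPM. Of the listed genes 3 of 6, 4 of 6 and 5 of 8 reached 1 CPM in every library, Xcr1 lay between 0.608 and 4.49 CPM, and C1qa was under 1 CPM throughout. Genes of a list did not all go the same way. Ccr2 was at 325, 168 and 524 CPM in Ox-mtDNA against 566, 638 and 1486 in PBS. Csf1r was at 273, 104 and 252 against 213, 136 and 213, and Itgam at 31.3, 19.3 and 31.7 against 9.72, 5.93 and 28.4. Of the pDC markers, Tcf4, Ly6d, Ccr9 and Klk1 were lower in every Ox-mtDNA library than in any PBS library, and the others overlapped. Siglech was at 1796, 1194 and 2015 CPM in Ox-mtDNA against 1717, 2258 and 2440 in PBS. B cell, plasma cell, T cell and neutrophil sums overlapped, and the low NK cell sum was higher in Ox-mtDNA (2.43 to 3.65 against 1.24 to 2.05 CPM). The part of any of these cell types in the values of Irf1, Irf7 and Irf9 was not tested. An exact permutation test of 3 against 3 libraries cannot give a p below 0.1.

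**Figure D3:**
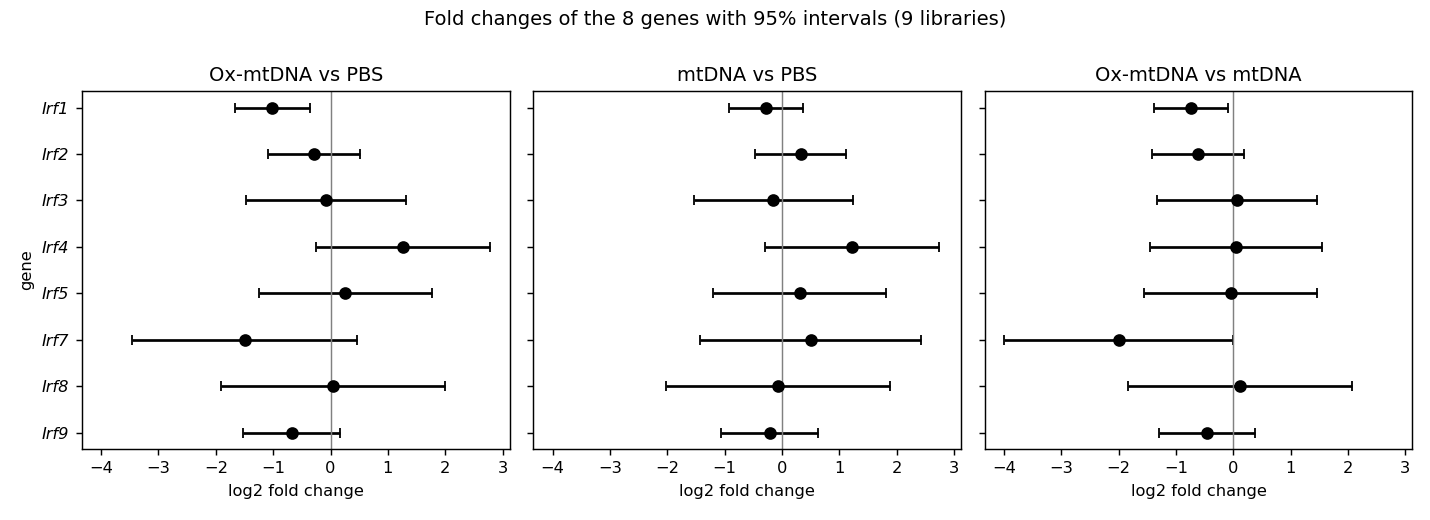
Log2 fold change of each gene (horizontal axis) with its 95% interval from the edgeR model in the 3 comparisons, 1 panel each. Every interval crosses 0 apart from those of Irf1 for Ox-mtDNA against PBS (-1.66 to -0.36) and against mtDNA (-1.38 to -0.09), and neither passed the adjusted threshold. The interval of Irf7 against mtDNA ends just above 0.

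Same-numbered libraries deviated together, which shows mainly the split of replicate 3. The deviations of replicates 1 and 2 from their group means also correlated across numbers. PBS replicate 2 and Ox-mtDNA replicate 1 correlated at 0.614, and PBS replicate 1 and Ox-mtDNA replicate 1 at 0.596. With that limit, the fit with the replicate number as a block is given as well, and it changed the count of members at an unadjusted p under 0.05. For Ox-mtDNA against PBS that count became 4 of 8 with the block, against 19.1% of all genes. They were Irf1 at -1.02 (edgeR adjusted p = 0.142), Irf4 at 1.18, Irf7 at -1.26 and Irf9 at -0.74 on the log2 scale. For mtDNA against PBS it remained 0 of 8, against 5.68% of genes. For Ox-mtDNA against mtDNA it became 3 of 8, against 6.81% of genes, namely Irf1 at -0.73, Irf2 at -0.61 and Irf7 at -1.48. With replicates 1 and 2 only, the counts were 3 of 8 (Irf1, Irf4 and Irf7) against 15.4% of genes, 0 of 8 against 2.62%, and 5 of 8 against 15%. The 5 were Irf1, Irf2, Irf7 and Irf9, all lower in Ox-mtDNA than in mtDNA, and Irf4, which was higher at 1.06 on the log2 scale. With the block added to these 6 libraries (an alternative chosen after seeing the data), the counts were 2 of 8 (Irf4 and Irf7) against 13.9% of genes, 0 of 8 against 2.79%, and 3 of 8 (Irf2, Irf7 and Irf9) against 13.7%, so Irf1 was in neither. None of these members passed an adjusted p of 0.05 in edgeR, block or not.

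**Figure D4:**
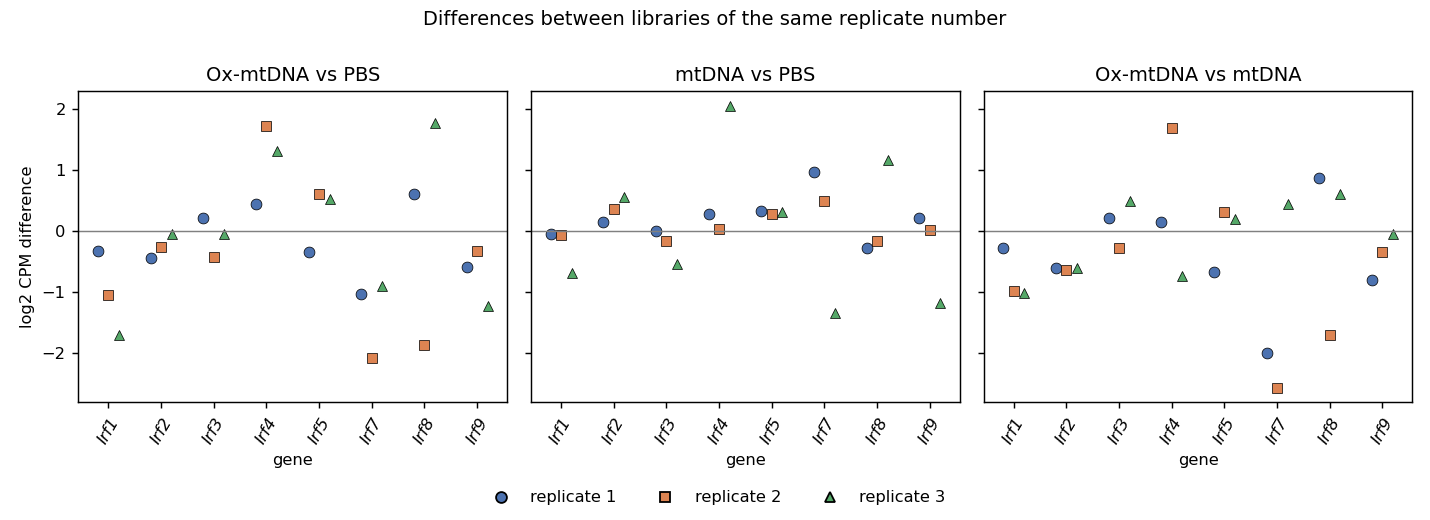
Log2 CPM difference between libraries of the same replicate number (vertical axis) for each gene, 1 panel per comparison and 1 point per replicate number. For Ox-mtDNA minus PBS the 3 points of Irf1 (-0.33, -1.04 and -1.69), Irf7 and Irf9 are below 0 and those of Irf4 (0.44, 1.73 and 1.32) are above it, whereas those of Irf8 fall on both sides.

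Irf1, Irf2, Irf7 and Irf9 were lower in Ox-mtDNA than in PBS in all 3 same-number pairs and Irf4 was higher. Over all tested genes, 17.6% were lower and 20.2% higher in all 3 pairs. For Irf1 the differences were -0.33, -1.04 and -1.69, for Irf7 -1.03, -2.07 and -0.89, and for Irf9 -0.59, -0.33 and -1.22 on the log2 scale. The 3 comparisons share libraries (PBS or either treated group), so their values stand side by side and are not independent of each other.

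Replicate 3 differed from the mean of replicates 1 and 2 in the same direction in all 3 groups for 6 members. Irf2, Irf3, Irf5, Irf7 and Irf8 were lower there in every group and Irf4 higher. The difference of Irf5 was -1.70, -1.69 and -1.31 on the log2 scale in PBS, mtDNA and Ox-mtDNA, and that of Irf3 was -1.36, -1.82 and -1.29. Both have transcripts with 55% to 60% GC, and the median of the 2842 genes of that class was -1.77, -1.39 and -1.21. Irf7, with 55.4% GC, departed from that class in mtDNA, where its difference was -3.51. Irf8, with 51.7% GC, had -2.85, -1.47 and -0.45 where the median of the 50% to 55% class was -0.11, -0.15 and -0.03. Irf4, with 47.6% GC, had 0.38, 2.27 and 0.61, where the 45% to 50% class had 0.31, 0.13 and 0.18. The part of GC content in the comparisons between treatments was not tested beyond a fit with a GC offset, which left every member's direction as it was.

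**Figure D5:**
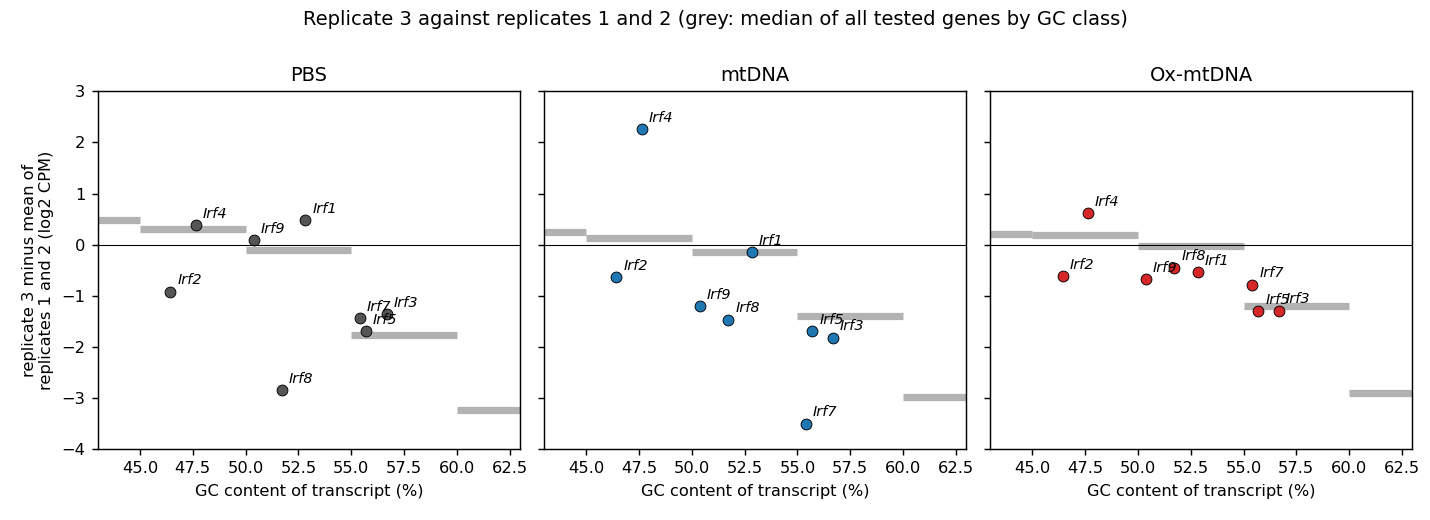
Log2 CPM of replicate 3 minus the mean of replicates 1 and 2 (vertical axis) against transcript GC content (percent, horizontal axis), 1 panel per group, with a point per family gene and a line at the median of all tested genes of each GC class. Irf3 and Irf5 lie near the line of the 55% to 60% class, Irf8 lies below its class in PBS at -2.85, and Irf4 lies above its class in mtDNA at 2.27.

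Genes that act before or after the IRFs were read from 6 lists, none of whose members passed an adjusted p of 0.05 with edgeR in any comparison. Of 20 ISRE-driven interferon-stimulated genes, 19 had a positive log2 fold change in mtDNA against PBS (median 0.82) and 0 of 20 in Ox-mtDNA against mtDNA (median -1.69). In Ox-mtDNA against PBS, 5 were positive and 15 negative (median -0.77). By replicate number the list's median for mtDNA minus PBS was 1.04, 1.16 and -0.80, and for Ox-mtDNA minus mtDNA it was -2.37, -1.60 and 0.12, so replicate 3 had the opposite sign in both. For Ox-mtDNA minus PBS it was -1.37, -0.81 and -0.83. Cxcl10, a chemokine gene for CXCR3-bearing lymphocytes, was among the 5 positive genes in Ox-mtDNA, at 1.59 against PBS (SE 0.701, edgeR adjusted p = 0.515, and 2.66 without PBS replicate 1), and it stood at 2.56 in mtDNA against PBS (SE 0.724). Rsad2, which encodes the antiviral enzyme viperin, was at 1.57 in mtDNA against PBS. In Ox-mtDNA, Ifit3 was at -1.54 against PBS (-2.38 without Ox-mtDNA replicate 2), and Mx1 and the RNA sensor Ifih1 were at -1.38 and -1.79 against mtDNA. Between the replicate 3 libraries, the Ox-mtDNA minus mtDNA differences of Mx1 and Ifih1 were 0.11 and -0.36.

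Genes linked to IRF1 and interferon-gamma, among them guanylate-binding proteins and antigen processing genes, had a similar split. Of 21, 17 were positive in mtDNA against PBS (median 0.51), 4 in Ox-mtDNA against PBS (median -0.57) and 1 in Ox-mtDNA against mtDNA (median -1.15). By replicate number the list's median for mtDNA minus PBS was 0.60, 0.46 and -0.45, with the opposite sign in replicate 3. It was -0.87, -0.74 and -0.36 for Ox-mtDNA minus PBS and -1.72, -1.26 and -0.08 for Ox-mtDNA minus mtDNA. Irgm1, an immunity-related GTPase, was at -1.16 in Ox-mtDNA against PBS (SE 0.399, edgeR adjusted p = 0.472) and -1.33 against mtDNA. Cd274, which encodes PD-L1, was positive in both treatments, at 3.0 in Ox-mtDNA and 3.47 in mtDNA, each against PBS (SE 1.13 and 1.15). Its mtDNA value rested on replicate 3, being 0.90 without that library, with same-number differences of 0.63, 0.83 and 5.39. Gbp4 was at 0.92 in mtDNA against PBS and Gbp7 at -2.12 in Ox-mtDNA against mtDNA, the latter with same-number differences of -2.72, -2.36 and 0.06.

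The interferon receptor and JAK-STAT list had 10 of 13 genes negative in Ox-mtDNA against PBS (median -0.60). Of these, 4 were at an unadjusted edgeR p under 0.05, against 9.81% of all tested genes. At that threshold in the same comparison, the ISRE-driven list had 0 genes, and the IRF1-linked list 1 higher and 2 lower. The partner list had 1 higher and 1 lower, and the list of IRF activators 1 lower. The interferon genes are left out of these counts. The 2 that were tested were at or near 0 in PBS and passed the filter only through treated libraries. Stat2 was at -1.05 (SE 0.396, edgeR adjusted p = 0.473). Against mtDNA, 11 of 13 were negative (median -0.58), including Usp18, a brake on interferon receptor signalling, at -2.27. In mtDNA against PBS 11 of 13 were positive with a median of 0.10, Usp18 being at 0.95 (0.49 without mtDNA replicate 1) and the receptor chain Ifnar2 at -0.15. Same-number differences of Usp18 were 1.27, 1.11 and -1.02 for mtDNA minus PBS, and -3.16, -2.08 and -0.09 for Ox-mtDNA minus mtDNA. At an unadjusted edgeR p under 0.05, Ox-mtDNA against mtDNA had 5 of 20 ISRE-driven, 6 of 21 IRF1-linked and 4 of 13 receptor and JAK-STAT genes lower. The share of all tested genes was 2.4%. In mtDNA against PBS, where that share was 2.62%, 2 ISRE-driven and 3 IRF1-linked genes were higher and 0 receptor and JAK-STAT genes were at that threshold.

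Receptors, adaptors and kinases that activate IRFs were nearly balanced, with 7 of 18 positive in Ox-mtDNA against PBS (median -0.06), 8 of 18 in mtDNA against PBS (median -0.05) and 8 of 18 in Ox-mtDNA against mtDNA (median -0.03). Tlr7, the endosomal RNA receptor, was lowest in Ox-mtDNA, at -1.41 against PBS (SE 0.270, edgeR adjusted p = 0.472) and -0.97 against mtDNA (SE 0.268). Its adaptor gene Myd88 was at -0.69 in Ox-mtDNA against PBS, and -0.46 without PBS replicate 3. In mtDNA against PBS the DNA sensor Cgas was at 1.08 (0.67 without PBS replicate 3) and the RIG-I-like receptor adaptor Mavs at -0.45, and Mavs was at 0.27 in Ox-mtDNA against mtDNA.

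Among partner factors and cofactors, 14 of 15 were tested and 6 were positive in Ox-mtDNA against PBS (median -0.19), 8 in mtDNA against PBS (median 0.05) and 6 in Ox-mtDNA against mtDNA (median -0.04). Prdm1, which encodes the repressor Blimp-1, was at 2.30 in Ox-mtDNA (SE 0.639) and 1.62 in mtDNA (SE 0.626), each against PBS, and the mtDNA value was 0.67 without mtDNA replicate 3. Tcf4, which encodes the pDC lineage factor E2-2, was at -1.05 in Ox-mtDNA against PBS (SE 0.391) and -0.64 against mtDNA, the latter being -0.31 without Ox-mtDNA replicate 2. Ikzf3 was at -1.32 in mtDNA against PBS, and Batf3, a partner of IRF8 and IRF4, was at -1.12 in Ox-mtDNA against mtDNA (SE 0.651). Batf3 was low in every library, between 0.544 and 3.31 CPM. Its same-number differences were -1.40, -1.43 and 0.67, with the opposite sign in replicate 3.

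Of the 19 type I and III interferon genes, only Ifnb1 and Ifna2 passed the filter, and fragments that align to several of the near-identical interferon-alpha genes were not counted. Ifnb1 was at 0.0465, 0 and 0 CPM in PBS replicates 1 to 3, 0.320, 0 and 48.9 CPM in mtDNA and 7.16, 0.264 and 35.2 CPM in Ox-mtDNA. Both high values were in replicate 3 libraries, and mtDNA replicate 3, with the highest Ifnb1, had the lowest Irf7 of the 9 libraries at 31.9 CPM. Ifna2 was 0 in all PBS libraries and in mtDNA replicates 1 and 2, 2.45 CPM in mtDNA replicate 3, and 1.55, 0.0529 and 1.70 CPM in Ox-mtDNA. No fold is given for either, since PBS libraries were at or near 0.

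The genes whose pattern was most like that of a member were sought among 11536 tested genes with a mean of at least 5 CPM, by Pearson correlation of log2 CPM over the 9 libraries after the mean of each replicate number was subtracted. The values describe these 9 libraries, which share groups and depth, and carry no test. Irf7 was most like Dhx58os (0.998), Slc25a45 (0.997) and Dhx58 (0.994). Irf8 was most like Ppm1m (0.995), Psap (0.993) and Top3b (0.992), and Irf9 was most like C1d (0.995), Gpalpp1 (0.993) and Zscan29 (0.992). Irf4 was most like Adm (0.993), Mcm9 (0.988) and Zfp654 (0.986). Irf1 was most like Gm17334 (0.991), the antisense gene that overlaps it, then ENSMUSG00000121724 (0.988) and Gm20735 (0.976). Irf3 was most like Carm1 (0.988), Vps45 (0.977) and Mettl8 (0.970), Irf5 was most like Gm16172 (0.984), Nol3 (0.984) and Stat6 (0.976), and Irf2 was most like Adipor2 (0.968), Mgat4a (0.960) and Smarcd1 (0.957).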

How the data were processed

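Polyadenylated RNA of FACS-sorted mouse pDCs was sequenced in 9 libraries, assigned to groups by title. Per the submitters' processing notes, fastp 0.23.4, STAR 2.7.11b and featureCounts 2.0.1 were used with GRCm39. The authors deposited raw counts per gene, without normalization. Per the file headers, counting ignored strand, counted a fragment for each gene it overlapped and used the GENCODE M34 annotation. Of 57126 genes, 19757 had no count and 51884 matched a symbol in the reference tables used.

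Counts were tested in R 4.3.3 with edgeR 4.0.16 (filterByExpr, minimum count 10, TMM, robust quasi-likelihood F-test, 1 coefficient per group, all 9 libraries), adjusted by Benjamini-Hochberg over 17555 genes at 0.05. CPM uses TMM factors and log2 CPM a prior count of 2. Alternatives used limma 3.58.1 and DESeq2 1.42.0. The test was also run on simulated counts drawn from a common profile, with changed genes in Ox-mtDNA only. Those counts held no split of replicate 3, so that run cannot show how the test performs with the spread seen here. Each member had at least 357 counts per library, so counting error is small beside the spread between replicates. Replicate numbers come from the titles, and the 9 correlations of deviations between same-numbered libraries were 0.487 to 0.897, above the 0.1 taken as pairing. Those between different numbers were -0.871 to 0.708, and replicates 1 and 2 of different groups also correlated across numbers, so the pairing shows mainly the split of replicate 3. GC content is that of the longest GENCODE M21 transcript, for 16750 genes. Promoters come from RefSeq.

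The members and lists were chosen with earlier results of these data known. Named are the 8 members, up to 2 genes of smallest p per list and comparison, and the 3 genes most like each member. Some genes that this rule names are not reported here. Stat2 values per library, the overlapping genes and the single marker genes were added after values were seen. Marker lists for T cells (27.9 to 63.3 CPM summed), NK cells (1.17 to 3.65) and neutrophils (3.20 to 20.7) were summed too.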

Additional observations from a re-analysis of the deposited data

How the results depend on the processing

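No member passed an adjusted p of 0.05 under any alternative tried. The number of genes called moved from 0 to 370 (260 higher, 110 lower), 14 and 1 with DESeq2 in Ox-mtDNA against PBS, mtDNA against PBS and Ox-mtDNA against mtDNA. For Ox-mtDNA against PBS it was 25 with replicates 1 and 2 only, and 1 with the replicate block, alone or with a GC offset. The replicate block changed no other call. Tlr7 (-1.41) and Prdm1 (2.31) in Ox-mtDNA against PBS were past the threshold with DESeq2 alone (adjusted p = 0.000593 and 0.0421). Of the 8 ranks of level in PBS, 4 were kept with replicates 1 and 2 only, and 4 to 8 when 1 PBS library was left out.

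Irf1, Irf2, Irf7 and Irf9 in both comparisons of Ox-mtDNA, Irf4 in Ox-mtDNA against PBS, and Irf1 and Irf2 in mtDNA against PBS kept their direction under every alternative. Irf1 against PBS ranged from -1.25 to -0.66, Irf7 from -1.86 to -0.89, Irf9 from -0.89 to -0.44 and Irf4 from 1.03 to 1.55. Other differences changed sign, most of them near 0 but also Irf4 and Irf7 in mtDNA against PBS, as follows. Irf8 in mtDNA against PBS was 0.24 with limma-voom, 0.14 with the replicate block and 0.15 with block and GC offset, and Irf8 in Ox-mtDNA against mtDNA was -0.073 with limma-voom. With replicates 1 and 2 only, and there with the block (an alternative chosen after seeing the data), Irf8 in Ox-mtDNA against PBS was -0.20 and -0.42, Irf9 in mtDNA against PBS 0.12 and 0.12, and Ifnar2 there 0.071 and 0.070. With that block, Irf3 and Irf8 in Ox-mtDNA against mtDNA were -0.0068 and -0.22. Leaving out 1 library at a time gave the following ranges for differences that changed sign. For Ox-mtDNA against PBS they were -0.47 to 0.21 (Irf3), -0.35 to 0.57 (Irf5) and -0.89 to 0.42 (Irf8). For mtDNA against PBS they were -0.48 to 0.21 (Irf3), -0.035 to 1.57 (Irf4), -0.076 to 0.65 (Irf5), -0.12 to 1.12 (Irf7), -0.56 to 0.31 (Irf8), -0.46 to 0.026 (Irf9) and -0.30 to 0.00017 (Ifnar2). For Ox-mtDNA against mtDNA they were -0.31 to 0.38 (Irf3), -0.32 to 1.28 (Irf4), -0.65 to 0.27 (Irf5) and -0.81 to 0.50 (Irf8). A group left with 2 libraries borrows its spread from the others. The cause was not tested.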
